A study of Mus musculus with 9 samples.

Results

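The simple epithelial keratins described here are Krt7, Krt8, Krt18, Krt19, Krt20 and Krt23, 6 of the 18193 mouse genes with a probe set on the array. Their members were taken as every probe set that the platform annotation pairs with 1 of these genes and with no other, which gave 8 probe sets, 3 of them for Krt8 and 1 for each other gene. RNA of mouse stomach cells of strain C57BL/6 was measured on 9 Affymetrix arrays, 3 for each of 3 groups, and every value is a log2 signal. Mist1+Tomato+ cells from the corpus of the stomach make up the chief group. The isthmus group is also Mist1+Tomato+, from stomachs in which Lgr5+ cells had first been ablated, and the third group is parietal cells, the acid-secreting cells of the gland. The Mist1+ cells were sorted by flow cytometry, Tomato being a red fluorescent reporter. Mist1, encoded by Bhlha15, is a transcription factor found in cells that secrete enzymes, and Lgr5 is a Wnt pathway receptor used as a stem cell marker. The way in which the parietal cells were collected, the construct that drove the reporter, the means of ablation and the animals' age were not given in the sources used here.

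Keratins form the intermediate filaments of epithelial cells, and a filament is built from pairs of a type II and a type I chain, so that neither type polymerises alone. Among the genes here Krt7 and Krt8 encode type II chains, and Krt18, Krt19, Krt20 and Krt23 encode type I chains. Krt8 and Krt18 are the pair found throughout simple, single-layered epithelia. Krt19 is a short type I chain of ductal and glandular epithelia, and Krt20 is known from the differentiated surface cells of the stomach and intestine.

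Promoter sequences of 4 members are printed. Krt7 and Krt20 had the largest differences between group means, and Krt8 and Krt18 are the type II and type I genes that stand side by side on chromosome 15 with 0 protein-coding genes between them. Krt19 had no entry in the promoter set used, so its sequence could not be printed or searched. Each run is the 250 bases upstream of the RefSeq gene start, from the mouse assembly GRCm38.p6, written 5′ to 3′ on the gene's strand. Krt7 lies at chr15:101412153-101412402 (plus strand), Krt8 at chr15:102004343-102004592 (minus strand), Krt18 at chr15:102027966-102028215 (plus strand) and Krt20 at chr11:99438154-99438403 (minus strand). Capitals mark matches on either strand to the letters TATAAA (the TATA box), GGGCGG (the GC box bound by Sp1) or CACCC (the box bound by Klf factors), and these matches shared 0 bases with each other.
Krt7: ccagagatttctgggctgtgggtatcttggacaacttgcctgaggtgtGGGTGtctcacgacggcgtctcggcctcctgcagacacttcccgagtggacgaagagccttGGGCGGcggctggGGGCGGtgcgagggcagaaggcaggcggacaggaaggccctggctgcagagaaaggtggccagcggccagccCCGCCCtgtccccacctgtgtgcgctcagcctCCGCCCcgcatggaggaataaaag
Krt8: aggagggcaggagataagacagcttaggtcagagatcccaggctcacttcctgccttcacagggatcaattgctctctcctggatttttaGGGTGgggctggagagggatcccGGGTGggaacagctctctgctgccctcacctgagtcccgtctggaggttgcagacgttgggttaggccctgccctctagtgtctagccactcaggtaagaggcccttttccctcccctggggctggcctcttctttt
Krt18: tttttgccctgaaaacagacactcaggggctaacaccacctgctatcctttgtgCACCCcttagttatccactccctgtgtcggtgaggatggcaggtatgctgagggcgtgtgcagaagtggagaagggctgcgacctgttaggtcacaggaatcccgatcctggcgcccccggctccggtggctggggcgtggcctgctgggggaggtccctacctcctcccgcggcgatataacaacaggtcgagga
Krt20: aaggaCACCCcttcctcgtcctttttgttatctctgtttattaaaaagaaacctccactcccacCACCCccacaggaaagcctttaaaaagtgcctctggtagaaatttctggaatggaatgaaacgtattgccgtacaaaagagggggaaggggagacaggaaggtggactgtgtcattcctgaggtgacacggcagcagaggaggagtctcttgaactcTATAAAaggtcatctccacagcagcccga

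Of these windows, the Krt20 one held TATAAA, with its first base 29 bases before the start, and the Krt7 one held 4 matches to GGGCGG, between 141 and 24 bases before it. Over all 32841 RefSeq promoter windows of this length, 12.4% held TATAAA, 32.7% GGGCGG and 52% CACCC. With the window of Krt23, 5 members could be searched, of which 1 held TATAAA, 1 GGGCGG and 4 CACCC. The AP-1 letters TGANTCA were in 0 of the 5 against 6.75% of all promoters, and the ETS letters AGGAAG were in 3 of the 5 against 29.5%. The GC content was 66% for Krt7, 58% for Krt8, 60.4% for Krt18, 48% for Krt20 and 52.8% for Krt23, beside a median of 52.4%. A match describes these letters and nothing about a factor's binding.

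Array medians lay between 5.80 and 6.70 on the log2 scale, and were higher on the chief arrays (6.38 to 6.70) than on the isthmus (5.92 to 6.32) and parietal arrays (5.80 to 5.86). Centring every array on its median moved the median difference over all 11006 tested genes from 0.03 to 0.41 for isthmus minus chief, from -0.10 to 0.59 for parietal minus chief and from 0.093 to -0.22 for isthmus minus parietal. It moved the share of called genes that were higher from 23.6% to 83.3%, from 44.0% to 79.3% and from 55.8% to 38.2%, so small keratin differences are read beside this shift. Summed signals of 8 chief cell markers were 92600 to 129000 on chief, 31500 to 42500 on isthmus and 24800 to 33100 on parietal arrays, and those of 8 parietal markers were 21500 to 40800, 18700 to 35200 and 81700 to 95900. Chief replicate 3 stood apart from the other arrays: its 5 fibroblast markers summed to 25700 against 61.4 to 403 elsewhere, and its 10 squamous forestomach markers to 17900 against 299 to 9700. Of these 10, Sprr1a was the 1 marker above the array median on all isthmus and all parietal arrays (11.66 to 13.22). On those arrays Krt5, Krt14, Krt6a, Krt13 and Trp63 were always below the median. The rest of the list was above it on some: Krt15 on isthmus replicate 1, Ivl on isthmus replicates 1 and 2, Krt4 on parietal replicates 2 and 3 and Lor on parietal replicates 1 and 3. Chief replicate 3 and parietal replicate 1 also had high signals of Xist, the RNA of the inactive X chromosome (11.72 and 13.13 against 4.46 to 5.93). Keratin results below that lost their call without these arrays are given with the value they then had.

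All 8 probe sets passed the filter on low values, a signal above the array's median on at least 3 of the 9 arrays. In the parietal group 4 of the 6 keratin genes were lower than in the chief group and 0 higher (Krt7, Krt8, Krt19 and Krt20), by limma at an adjusted p under 0.05, where 13.5% of all tested genes were called lower, 10.7% higher and 24.2% in all. Against the parietal group the isthmus group was higher in 4 genes and lower in 0 (Krt7, Krt19, Krt20 and Krt23), with 15.4% of tested genes called higher, 12.2% lower and 27.5% in all. Between the isthmus and chief groups 0 of 6 were called, beside 1.65% of all tested genes. Without adjustment 1 of the 6 (Krt8) came below 0.05, beside 1914 of all 11006 tested genes. Over the 6 members the median difference was -1.54 for parietal minus chief, 1.47 for isthmus minus parietal and 0.055 for isthmus minus chief, beside -0.10, 0.093 and 0.03 over all tested genes. With centring the first count was 3 lower (Krt7, Krt19 and Krt20) and 1 higher (Krt18), beside 807 and 3100 of all 11006 tested genes. The second was then 3 higher, beside 1178. With quantile normalization the second was 6, beside 1585 of all tested genes called higher. Without chief replicate 3 the first count fell to 2 (Krt8 and Krt19), as it did without both arrays with high Xist. Beside these, 1130 and 958 of all tested genes were called lower. Without isthmus replicate 3 the second fell to 2 (Krt7 and Krt19), beside 1322 called higher. In bulk samples fewer cells of a type and less RNA per cell cannot be told apart.

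**Figure D1:**
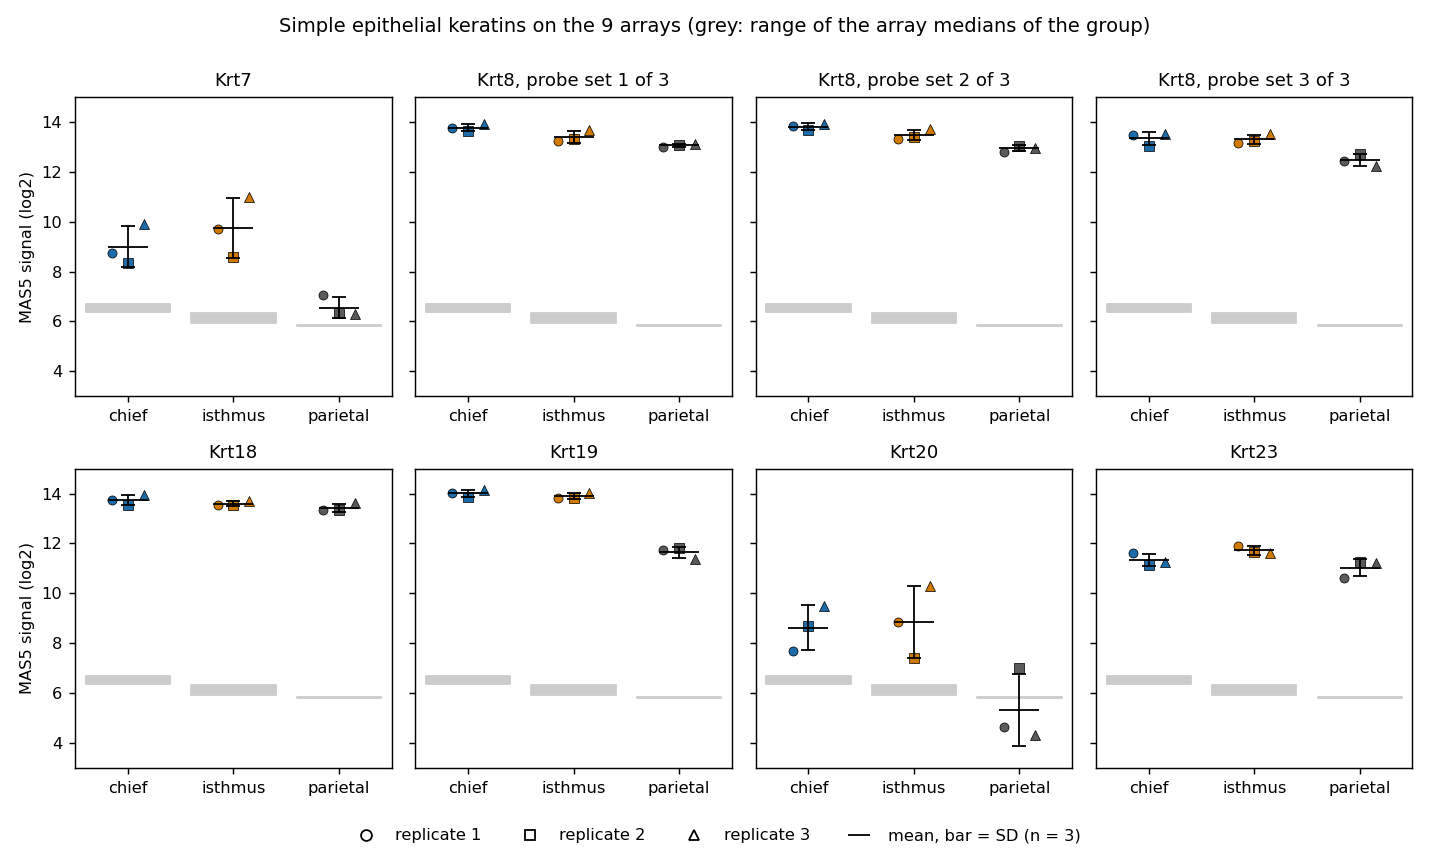
Log2 MAS5 signal (vertical axis) of the 8 keratin probe sets on the 9 arrays, with the mean and SD of the 3 replicates of each group and, in grey, the range of the group's array medians. Krt7, Krt19 and Krt20 sit lower on the 3 parietal arrays than on the other 6, while the points of Krt18 overlap between groups.

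Krt8 is the type II chain that nearly every simple epithelium makes. Its brightest probe set, which stands for the gene, read 13.77, 13.64 and 13.90 on the chief arrays, 13.22, 13.32 and 13.67 on the isthmus arrays and 13.01, 13.06 and 13.13 on the parietal arrays. The parietal arrays were the lowest and overlapped with neither other group, and the chief and isthmus values overlapped, isthmus replicate 3 lying above chief replicate 2. Parietal cells were 0.70 lower than chief cells (a 1.63-fold lower signal, 95% interval -0.98 to -0.43, limma adjusted p = 0.00147), but after centring of the arrays the difference was -0.01 (adjusted p = 0.963), and without the intensity trend the adjusted p was 0.0623. The isthmus group was 0.37 below the chief group (mean 13.40 ± 0.24 against 13.77 ± 0.13, SD, n = 3 each), which did not pass (limma adjusted p = 0.160), and centring turned this difference to 0.01.

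The other probe sets of Krt8 gave the same order for the parietal group. The second read 13.82, 13.67 and 13.93 on chief, 13.33, 13.38 and 13.71 on isthmus and 12.81, 13.05 and 12.95 on parietal arrays, and the third 13.46, 13.05 and 13.53, 13.16, 13.24 and 13.51, and 12.42, 12.71 and 12.24. In a limma fit over 21393 probe sets, of which 19.9% were called, parietal minus chief was -0.87 for the second (adjusted p = 0.000363) and -0.89 for the third (adjusted p = 0.00192), and with centring -0.18 and -0.20 (neither called). Isthmus minus parietal was 0.34 for the first probe set (limma over genes, adjusted p = 0.0640, not called), but 0.54 (adjusted p = 0.00749) and 0.85 (adjusted p = 0.00226) for the others, where 22.5% of probe sets were called. With centring these were 0.02 (adjusted p = 0.930), 0.22 (0.285, no longer called) and 0.53 (0.0444), and without the intensity trend neither of the last 2 was called (0.163 and 0.0654). Without isthmus replicate 1 the first probe set was called too (adjusted p = 0.0401), so this comparison of Krt8 lay close to the threshold.

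Krt7 encodes a type II chain of ductal and glandular cells. It read 8.76, 8.33 and 9.91 on the chief arrays, 9.69, 8.60 and 10.99 on the isthmus arrays and 7.05, 6.33 and 6.29 on the parietal arrays. All parietal values lay below all others, and the chief and isthmus values overlapped and spread widely (9.0 ± 0.82 and 9.76 ± 1.2, SD, n = 3). Krt7 was 5.44-fold lower in parietal than in chief cells (log2 difference -2.44, 95% interval -3.84 to -1.05, limma adjusted p = 0.0152). Without chief replicate 3, the highest chief array, the difference was -1.99 and no longer passed (adjusted p = 0.0676), nor did it without both arrays with high Xist (-2.24, adjusted p = 0.0749). It was 9.21-fold higher in the isthmus than in the parietal group (3.20, 1.81 to 4.60, limma adjusted p = 0.00273), a call made in 21 of 21 alternatives. Isthmus minus chief was 0.76 with an interval of -0.63 to 2.15 (limma adjusted p = 0.587).

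Krt18 is the type I partner of Krt8 in simple epithelia. It read 13.73, 13.53 and 13.95 on chief, 13.53, 13.53 and 13.72 on isthmus and 13.33, 13.35 and 13.60 on parietal arrays. The groups overlapped in every pair, and 0 of the 3 differences passed. Parietal minus chief was -0.31 (95% interval -0.58 to -0.044, limma adjusted p = 0.0859), and turned to 0.38 with centring (adjusted p = 0.0398), while without chief replicate 2 it was called as lower (adjusted p = 0.0346). Isthmus minus parietal was 0.17 (-0.099 to 0.43, limma adjusted p = 0.348), -0.15 with centring, and 0.49 with quantile normalization, where it was called (adjusted p = 0.00167). Isthmus minus chief was -0.14 (-0.41 to 0.12, limma adjusted p = 0.592), and turned to 0.23 with centring and 0.25 with quantile normalization.

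Krt19 had the smallest adjusted p of the 6 genes in both comparisons with the parietal group. It read 14.03, 13.86 and 14.15 on chief, 13.82, 13.81 and 14.03 on isthmus and 11.74, 11.81 and 11.38 on parietal arrays. The gap between the highest parietal array and the lowest other array was wider than the spread inside any group, whose SDs were 0.15, 0.12 and 0.23. Krt19 was 5.17-fold lower in parietal than in chief cells (log2 difference -2.37, 95% interval -2.67 to -2.07, limma adjusted p = 3.46e-07) and 4.73-fold higher in the isthmus than in the parietal group (2.24, 1.95 to 2.54, limma adjusted p = 7.64e-07). Both were called in all 21 alternatives, over a range of -2.45 to -1.68 and of 1.93 to 2.60. Isthmus minus chief was -0.13 (-0.42 to 0.17, limma adjusted p = 0.681), and turned to 0.25 with centring and 0.33 with quantile normalization.

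Krt20 had the widest spread between replicates of the 6 genes. It read 7.67, 8.71 and 9.48 on chief, 8.86, 7.40 and 10.31 on isthmus and 4.65, 6.99 and 4.32 on parietal arrays, with SDs of 0.91, 1.46 and 1.46. Only parietal replicate 2 of the parietal arrays was above its array median, so folds against that group are lower bounds, computed with any parietal value below the median of its array raised to that median. Krt20 was at least 5.23-fold lower in parietal than in chief cells (log2 difference -3.30, 95% interval -5.23 to -1.37, limma adjusted p = 0.0172) and at least 6.16-fold higher in the isthmus than in the parietal group (3.54, 1.61 to 5.46, limma adjusted p = 0.0102). The first call was lost without chief replicate 3 (adjusted p = 0.0687), parietal replicate 1 (0.0542), parietal replicate 3 (0.0648) or both arrays with high Xist (0.149). The second was lost without isthmus replicate 3 (2.81, adjusted p = 0.0548). Isthmus minus chief was 0.24 (-1.69 to 2.16, limma adjusted p = 0.923), and turned to -0.24 without chief replicate 1 and to -0.49 without isthmus replicate 3.

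Krt23 encodes a type I chain with a less settled place in simple epithelia. It read 11.62, 11.13 and 11.26 on chief, 11.91, 11.64 and 11.61 on isthmus and 10.63, 11.26 and 11.21 on parietal arrays. The isthmus arrays lay above all parietal arrays, and the chief arrays overlapped with both. Krt23 was 1.61-fold higher in the isthmus than in the parietal group (log2 difference 0.69, 95% interval 0.17 to 1.2, limma adjusted p = 0.0472), a call kept in 8 of 21 alternatives, with adjusted p from 0.0333 to 0.387. The call was kept without chief replicate 1 or 2 and lost without any of the other 7 arrays (adjusted p = 0.0525 without chief replicate 3 and up to 0.186 without parietal replicate 1; 0.192 with both high-Xist arrays left out), and centring ended it too (0.37, adjusted p = 0.387). Parietal minus chief was -0.30 (-0.82 to 0.21, limma adjusted p = 0.391) and turned to 0.39 with centring, and isthmus minus chief was 0.38 (-0.13 to 0.90, limma adjusted p = 0.440).

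**Figure D2:**
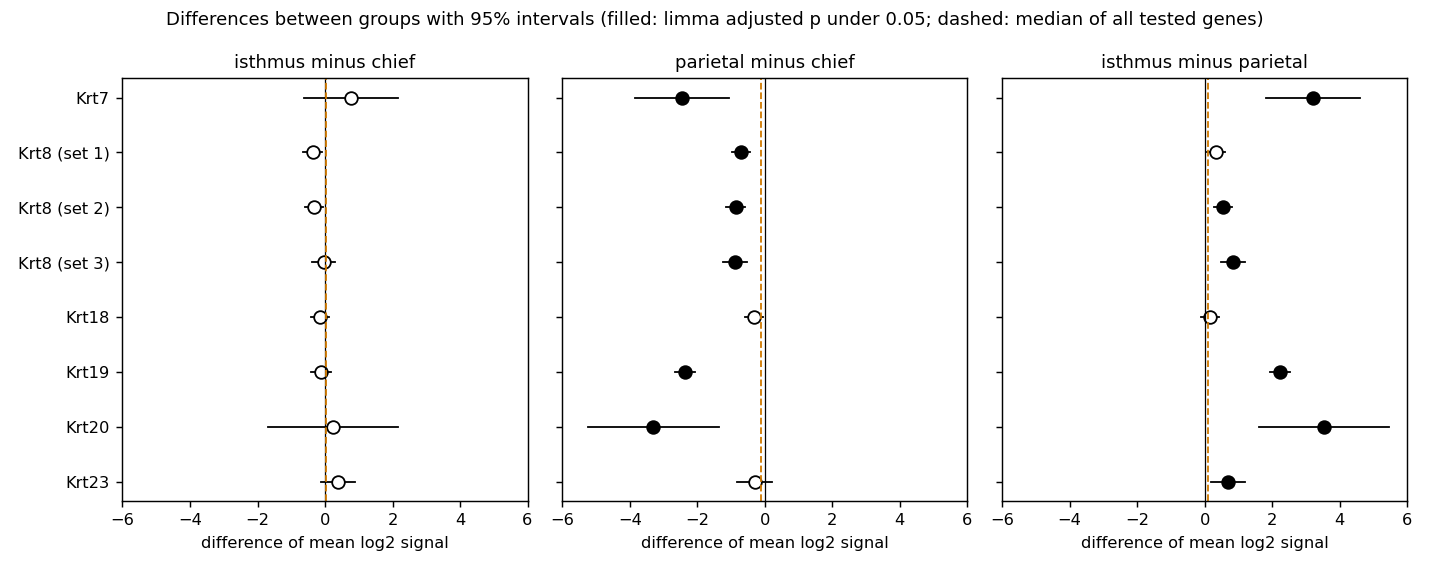
Differences of mean log2 signal between groups (horizontal axis) for the 8 keratin probe sets with 95% intervals from limma, filled where the adjusted p was under 0.05, and the median of all tested genes as a dashed line. Krt7, Krt19 and Krt20 are filled in both comparisons with the parietal group, at -2.44, -2.37 and -3.30 against chief cells, and no probe set is filled for isthmus minus chief.

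Ordered by their group means, Krt8, Krt18 and Krt19 ran from chief (13.77, 13.74 and 14.01) over isthmus (13.40, 13.59 and 13.89) to parietal (13.07, 13.43 and 11.64), and with centring the chief group was no longer the highest for any of them. Krt7, Krt20 and Krt23 ran from isthmus (9.76, 8.86 and 11.72) over chief (9.0, 8.62 and 11.34) to parietal (6.56, 5.32 and 11.03), and with centring Krt23 was lowest in the chief group. In these orders the values of chief and isthmus arrays overlapped for all 6 genes, those of isthmus and parietal arrays for Krt18, and those of chief and parietal arrays for Krt18 and Krt23. Groups without overlap were found for 4 of the 6 genes between parietal and chief (all 4 lower in parietal, beside 21.2% of tested genes), for 5 of the 6 between isthmus and parietal (all 5 higher in isthmus, beside 24%), and for 0 of the 6 between isthmus and chief (beside 21.2% in either direction).

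**Figure D3:**
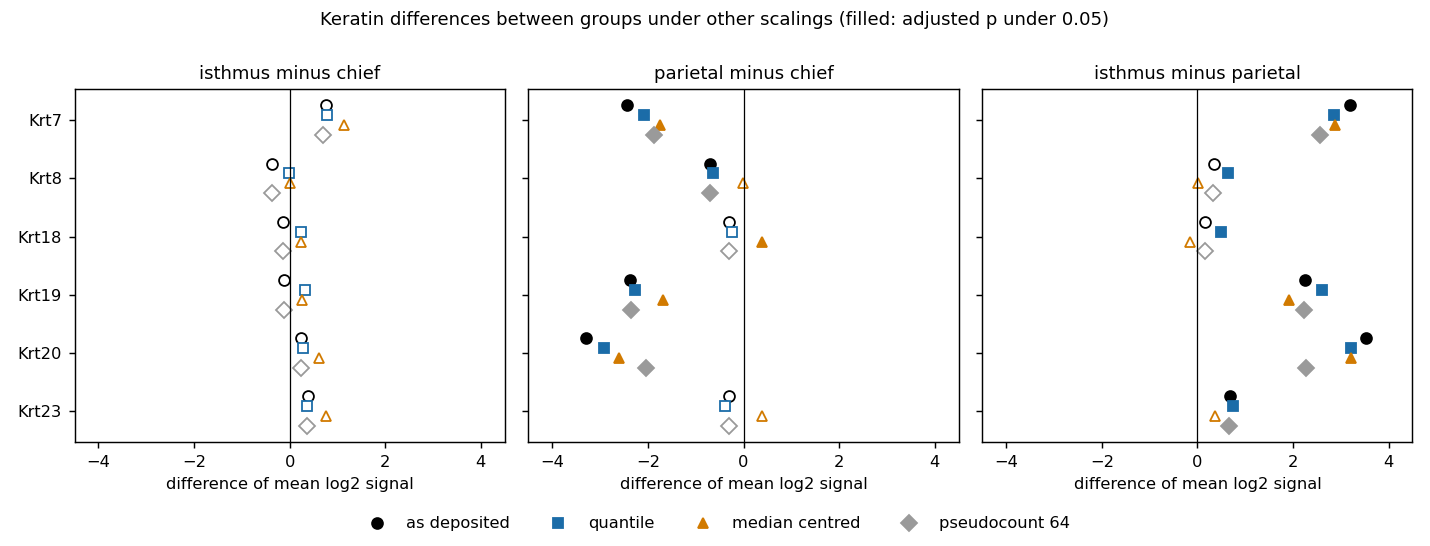
Differences of mean log2 signal (horizontal axis) of the 6 keratin genes with the values as deposited, after quantile normalization, after centring on array medians and with a pseudocount of 64, filled where the limma adjusted p was under 0.05. Krt7, Krt19 and Krt20 keep their side of 0 and their call against the parietal group under all 4, while Krt18 changes side in all 3 panels and Krt8 of parietal minus chief goes from -0.70 to -0.01 with centring.

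The scaling of an array cancels in the ratio of a keratin to Krt8 on the same array, so these ratios show unequal change, though not which gene changed. The log2 ratio of Krt19 to Krt8 was 0.26, 0.22 and 0.25 on chief, 0.60, 0.49 and 0.36 on isthmus and -1.27, -1.25 and -1.75 on parietal arrays. No groups overlapped with this Krt8 probe set, and Krt19 moved against Krt8 by -1.67 from chief to parietal, by 1.91 from parietal to isthmus and by 0.24 from chief to isthmus. With the mean of all Krt8 probe sets the last was 0.12 and those groups overlapped (exact permutation p = 0.2). The ratio of Krt18 to Krt8 was -0.04, -0.11 and 0.05 on chief, 0.31, 0.21 and 0.05 on isthmus and 0.32, 0.29 and 0.47 on parietal arrays. It was 0.39 higher in parietal than in chief cells with no overlap, while chief and isthmus met at the value of both replicates 3.

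For Krt7 the ratio to Krt8 was -5.01, -5.31 and -3.99 on chief, -3.53, -4.72 and -2.68 on isthmus and -5.96, -6.73 and -6.84 on parietal arrays, which left parietal below both others. For Krt20 it was -6.10, -4.93 and -4.42, then -4.36, -5.92 and -3.36, then -8.36, -6.07 and -8.81, and parietal overlapped with chief but not with isthmus. For Krt23 it was -2.15, -2.51 and -2.64, then -1.31, -1.68 and -2.06, then -2.38, -1.80 and -1.92, and isthmus was above chief by 0.75 without overlap. Of the 15 ratio differences, 5 in each comparison, 2 were without overlap between isthmus and chief, 3 between parietal and chief and 3 between isthmus and parietal. An exact two-sided permutation test of 3 arrays against 3 cannot give a p below 0.1, and each of these 8 reached that value, so none of them can pass 0.05. Ratios of genes other than the members to Krt8 were not computed. The counts without overlap therefore have no share over all genes beside them, and are a description alone.

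**Figure D4:**
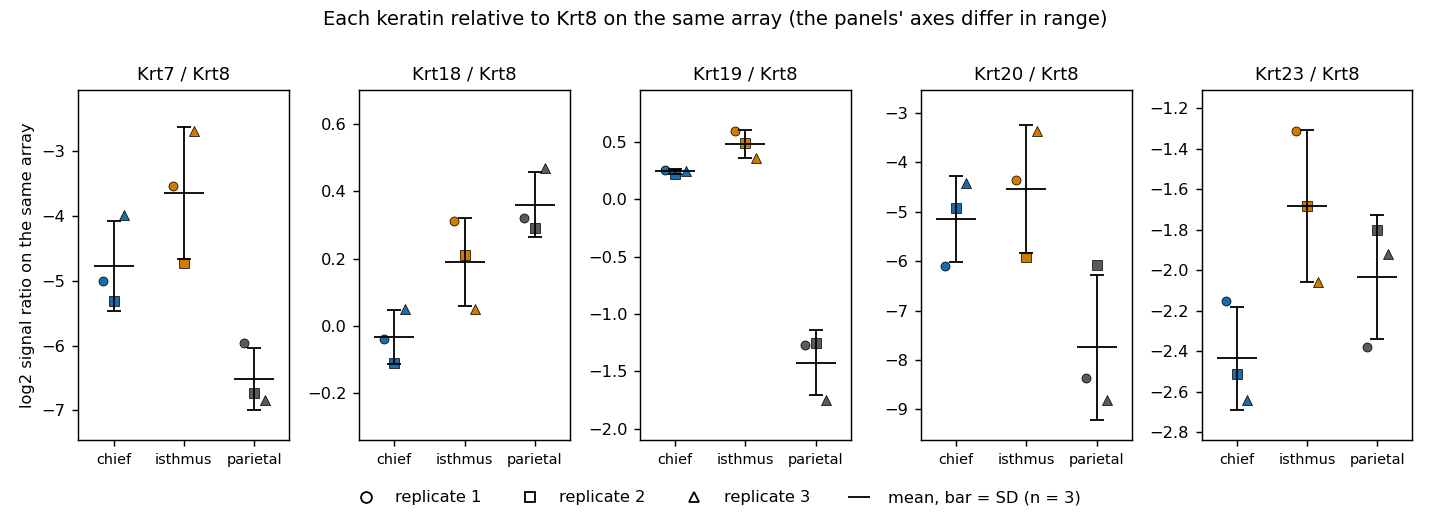
Log2 ratio of each keratin's signal to that of Krt8 on the same array (vertical axis, a separate range in each panel), with the mean and SD of the 3 replicates of each group. The Krt19 ratio is -1.75 to -1.25 on parietal arrays and 0.22 to 0.60 on the other 6, and the Krt18 ratio has its highest mean on parietal arrays (0.36), where it overlaps with isthmus.

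Inside the chief and isthmus groups replicate 3 was the highest array for Krt7, Krt8, Krt18, Krt19 and Krt20, and replicate 1 was for Krt23. The highest parietal array differed between members, being replicate 1 for Krt7, replicate 2 for Krt19, Krt20 and Krt23 and replicate 3 for Krt8 and Krt18. Krt8 and Krt18 ranked the 3 replicates alike in all 3 groups, a tie between isthmus replicates 1 and 2 of Krt18 aside. The replicate numbers come from the titles and carry no order.

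Other keratins were mostly dim. Of 45 other keratin genes listed, 40 had a probe set and 8 passed the filter. Parietal cells were higher than chief cells in 1 of the 8, Krt10, a type I chain of differentiating squamous layers (log2 difference 2.09, limma adjusted p = 0.0429), and lower in 2, Krt79 (-2.72, adjusted p = 0.0299, at least 4.19-fold) and Krt42 (-1.25, adjusted p = 0.0347). These calls were kept in 11, 13 and 10 of 21 alternatives, with adjusted p values up to 0.127 (without chief replicate 2), 0.118 (without chief replicate 3) and 0.113 (without parietal replicate 3) where 1 array was left out. Without both arrays with high Xist the adjusted p of Krt79 was 0.251 and that of Krt42 0.0792. With its 2 probe sets averaged Krt42 was at -0.49 and not called (limma adjusted p = 0.539). Without chief replicate 3 the counts were 1 higher and 0 lower, beside 966 and 1130 of all tested genes. With quantile normalization they were 0 and 0, beside 1156 and 1273. In the isthmus group Krt79 was higher than in the parietal group (3.18, limma adjusted p = 0.0119, 0.0556 without isthmus replicate 3), the 1 call of 8. Between isthmus and chief 0 of 8 were called, with 0 at an unadjusted p under 0.05, beside 1914 of all 11006 tested genes.

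Some keratins of squamous, layered epithelium were bright on chief replicate 3, and these 4 were named after their values were seen. Krt5, Krt14, Krt15 and Krt6a, chains of the basal layer and of activated keratinocytes, read 11.32, 11.24, 12.10 and 10.23 there. Others were not: Krt13 and Krt4, on the same list of squamous markers, read 5.20 and 5.04 there, and Krt1, Krt2, Krt17 and Krt6b 4.87, 4.32, 1.87 and 1.43, below that array's median of 6.70. On the other 8 arrays the highest values were 5.05 for Krt5, 5.08 for Krt14, 8.63 for Krt15 (isthmus replicate 1) and 4.83 for Krt6a, and all of them but this Krt15 value were below their array medians. Chief replicate 3 was also the highest chief array for Krt7, Krt8, Krt18, Krt19 and Krt20, and the part of squamous cells in those values was not tested. Without it the Krt19 and Krt8 differences between parietal and chief cells were -2.30 and -0.64 (limma adjusted p = 6.19e-06 and 0.00858).

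**Figure D5:**
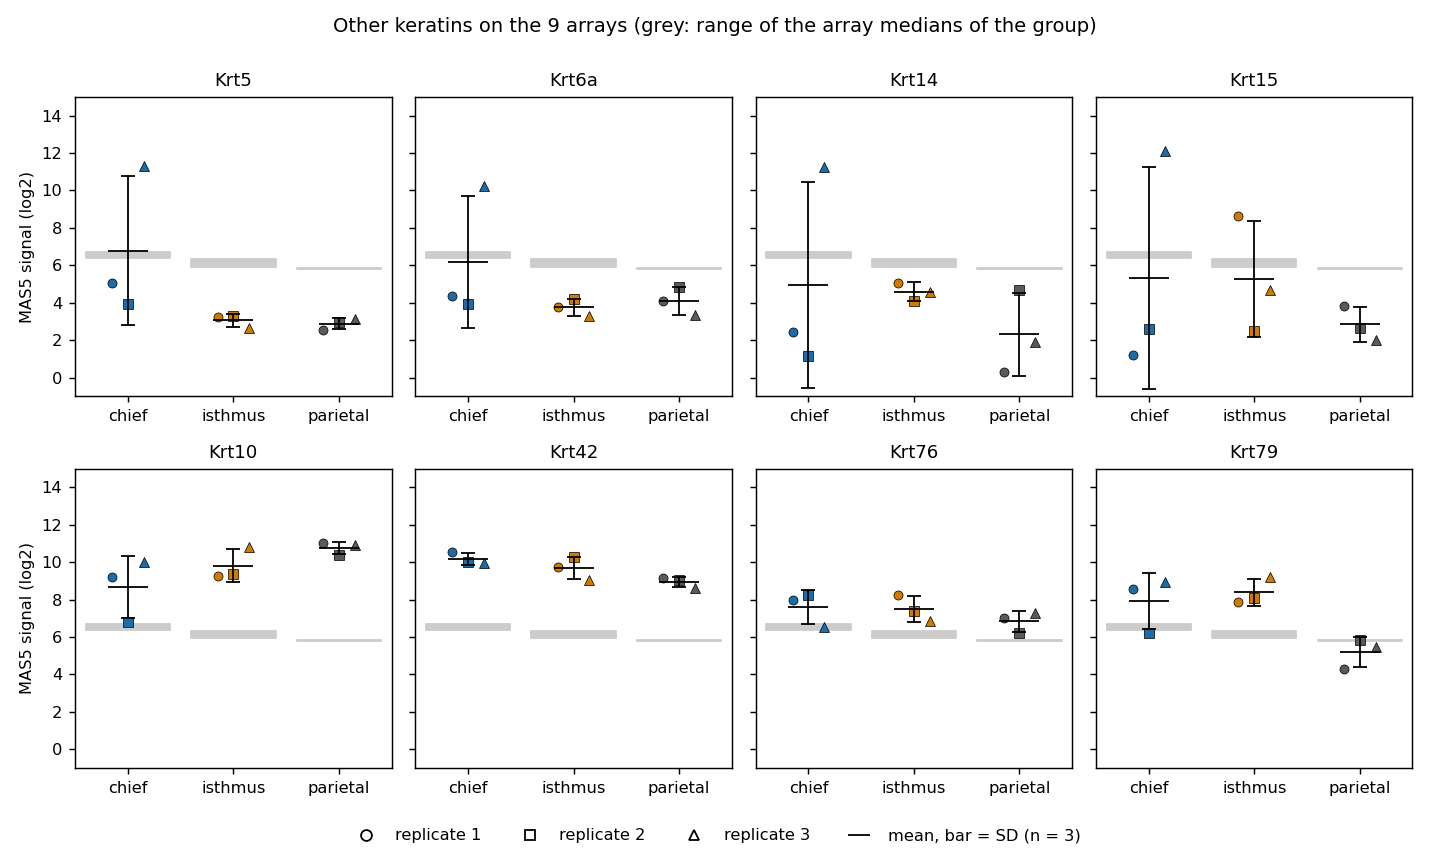
Log2 MAS5 signal (vertical axis) of 8 other keratins on the 9 arrays, with the mean and SD of the 3 replicates and, in grey, the range of the group's array medians. Krt5, Krt6a, Krt14 and Krt15 are bright on chief replicate 3 (10.23 to 12.10), and Krt10 and Krt42 lie above the array medians on all 9 arrays.

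On the chromosomes the members stand among keratin genes that were mostly dim. Chromosome 15, with the type II genes and Krt18, held 26 keratin genes in the RefSeq table, 24 with a probe set, and the 3 above the array median on all 9 arrays were Krt7, Krt8 and Krt18. Another 15 of the 24 were above it on 0 to 2 arrays. Chromosome 11, with the other type I genes, held 27, 24 with a probe set, of which Krt10, Krt19, Krt23 and Krt42 were above the median on all 9 arrays and 18 on 0 to 2. Krt20 and Krt23 are next to each other there, and their values differed in that Krt20 was lower in parietal than in chief cells while Krt23 overlapped.

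Markers of other stomach cells differed between the groups too, and their part in the keratin results was not tested. The 5 pit cell markers, of the surface cells in which Krt20 is known, summed to 104000 to 129000 on chief, 67400 to 80500 on isthmus and 52200 to 59100 on parietal arrays. The 7 endocrine markers summed to 40800 to 78600, 18800 to 42500 and 458 to 693, the 4 neck cell markers to 13300 to 30600, 13600 to 14200 and 2770 to 7150, and the 6 tuft cell markers to 1590 to 3980, 2270 to 3510 and 218 to 519. All 4 sums were lowest on the parietal arrays, as Krt7, Krt19 and Krt20 were. In each group Avil was the 1 tuft marker of 6 above the array median on all 3 arrays. Its means were 10.75 on chief, 11.19 on isthmus and 7.15 on parietal arrays. Dclk1, the other tuft marker tested, had means of 4.58, 6.83 and 6.38 and was not called in any comparison, so the tuft sum does not describe the markers as a set. Of the pit markers 5 of 5 were called lower in parietal than in chief cells, of the neck markers 4 of 4, of the endocrine markers 5 of 7 and of the tuft markers 1 of 2 tested, beside 13.5% of all tested genes. The smaller of these, Psca (-0.55) and Tff1 (-0.82), are read beside the shift with centring. For isthmus minus chief 4 of 5 pit, 0 of 4 neck, 1 of 7 endocrine and 0 of 2 tuft markers were called lower, where 0 of 6 keratins were. Psca had a lower mean on isthmus (13.47) than on parietal arrays (13.64). Leukocyte markers summed to 50.6 to 673, with the highest sum on chief replicate 3. There Ptprc read 8.80 and Lyz2 7.41, above the array median of 6.70. Tyrobp read 7.10 on chief replicate 1 and 8.18 and 7.54 on parietal replicates 2 and 3, above their medians. Cd3e and Cd52 were below the median on every array. Mesothelial markers summed to 14.1 to 47.2. Ptprc and Wt1, which define these cell types, were at 0 on a parietal array each, and the chief marker Bhlha15 was at 0 on a parietal array too. Bhlha15, which encodes Mist1, read 10.75, 10.05 and 9.20 on chief and 5.03, 1.34 and 7.36 on isthmus arrays. Of the isthmus arrays replicate 3 alone had it above the array median. Its isthmus minus chief difference was not called (-5.42, limma adjusted p = 0.123).

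Genes of the desmosome, the junction to which keratin filaments attach, were lower in parietal cells in part. Of 13 listed, 12 had a probe set and 9 were tested, and against chief cells 6 were lower and 0 higher. The cadherin Dsc3 was at least 8.57-fold lower (-4.87, limma adjusted p = 0.00435). It read 7.75, 8.26 and 10.80 on the chief arrays, so the size of this fold rests partly on chief replicate 3. The Dsc3 difference ranged from -5.47 to -3.94 with 1 array left out. The plakophilin Pkp3 (-1.89, adjusted p = 0.0377) and the cadherins Dsg2 (-0.85, adjusted p = 0.00229) and Dsc2 (-0.64, adjusted p = 0.0253, turned to 0.05 with centring) were lower too. Without chief replicate 3 the count was 3 lower, beside 1130 of all 11006 tested genes, and without both high-Xist arrays 1, beside 958. With centring 2 were higher and 1 lower, beside 3100 and 807 of all tested genes. Where a single array was left out the adjusted p reached 0.137 for Pkp3 (without chief replicate 3) and 0.0978 for Dsc2 (without parietal replicate 1), and stayed at or under 0.0311 for Dsc3 and 0.0101 for Dsg2. The Dsc3 call was lost without both high-Xist arrays (adjusted p = 0.0763), and that of Dsg2 with centring (-0.16, adjusted p = 0.554). In the isthmus group 5 were higher than in the parietal group and 0 lower, with Pkp3 at 2.42, Dsc2 at 1.05, Dsg2 at 0.97 and Pkp2 at 0.94 (limma adjusted p = 0.00986, 0.00126, 0.000806 and 0.0186). With centring 3 were higher and 1 lower, beside 1178 and 1905 of all tested genes. Without isthmus replicate 3 the calls of Pkp3 and Pkp2 were lost (limma adjusted p = 0.0523 and 0.0683), that of Pkp2 also without both high-Xist arrays (0.0507). Between isthmus and chief 0 of 9 passed, with 3 at an unadjusted p under 0.05, beside 1914 of all 11006 tested genes. Desmoplakin (Dsp), which ties keratins to the junction, passed in none of the 3 comparisons.

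The plakins link filaments to other structures, and 2 of the 6 were called higher in parietal than in chief cells, with 0 lower, beside 10.7% and 13.5% of all tested genes. The other 4 did not pass, with Plec (-0.77), Ppl (-1.91) and Evpl (-2.02) below 0 and Eppk1 (0.26) above it. For isthmus minus parietal these 4 lay from 0.43 to 2.35 and did not pass, so the plakins did not move as a set. Dst read 9.12 to 10.09 on chief, 9.39 to 10.31 on isthmus and 12.59 to 12.73 on parietal arrays, and was 9.25-fold higher in parietal than in chief cells (limma adjusted p = 2.92e-05). Macf1, which joins microtubules to actin, was 1.07 higher (limma adjusted p = 0.00515), and not called where all its probe sets were averaged (adjusted p = 0.132). Both were lower in the isthmus than in the parietal group (-2.85 and -1.03, limma adjusted p = 6.28e-05 and 0.00539; 0.0564 and 0.359 with probe sets averaged), and 0 of 6 were called between isthmus and chief.

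Of 22 genes listed whose products bind or modify keratins, 18 were tested, and most did not pass. For parietal minus chief 1 was higher, 1 lower and 16 did not pass, beside 24.2% of all tested genes called. For isthmus minus parietal 0 were higher, 3 lower and 15 did not pass, beside 27.5% called. In parietal cells the caspase Casp6, which cleaves keratins in apoptosis, was 1.83 higher than in chief cells (limma adjusted p = 0.000132), and the 14-3-3 protein Ywhaz was 0.62 lower (adjusted p = 0.00167), a difference that turned to 0.073 with centring, under which 9 of the 18 were called higher, beside 3100 of all 11006 tested genes. In the isthmus group Casp6, the sugar transferase Ogt and the chaperone Hspa8 were lower than in the parietal group (-1.66, -1.0 and -0.44, limma adjusted p = 0.000219, 0.00314 and 0.0154), and Casp6 was not called with its probe sets averaged (adjusted p = 0.236), nor Hspa8 without parietal replicate 1 (0.0576) or both high-Xist arrays (0.0720). Hspa8 was the 1 gene called between isthmus and chief (-0.62, limma adjusted p = 0.0271), and this call was lost with centring, with quantile normalization and without chief replicate 3 (adjusted p = 0.289, 0.146 and 0.0634).

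Among 11 general epithelial genes 4 were lower and 1 higher in parietal than in chief cells. The transcription factors Ehf (-3.05, limma adjusted p = 0.000857) and Klf5 (-1.66, adjusted p = 0.000861) were lower, as were the actin bundler Vil1 (-2.87, adjusted p = 0.00343) and the adhesion molecule Epcam (-1.05, adjusted p = 0.00162, -0.36 and not called with centring). With centring 4 were higher and 3 lower, beside 3100 and 807 of all 11006 tested genes. The same 4 genes were higher in the isthmus than in the parietal group (4.12, 1.59, 2.88 and 1.18, limma adjusted p = 8.99e-05, 0.000939, 0.00281 and 0.000625), where 5 were higher and 1 lower in all. Between isthmus and chief 0 of 11 were called, with 2 at an unadjusted p under 0.05, beside 1914 of all 11006 tested genes. Of 15 other intermediate filament genes 5 were tested: Lmnb1 (3.70, limma adjusted p = 0.00809) and Lmna (1.18, adjusted p = 0.0213), which line the nucleus, were higher in the isthmus than in the parietal group, and were lower in parietal than in chief cells (-2.63, adjusted p = 0.0481, and -1.03, adjusted p = 0.0450). Without chief replicate 3 the latter count was 0, and the adjusted p of Lmna in the former reached 0.0889 without isthmus replicate 3. Vim, the filament of mesenchymal cells, read 5.98, 5.31 and 11.38 on chief, 3.34, 3.21 and 8.60 on isthmus and 8.54, 7.0 and 9.35 on parietal arrays, and passed in none of the 3 comparisons.

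The tested genes most like each member were ranked by Pearson's r of log2 values over the 9 arrays, which share groups, scaling and array quality, so that r is a description alone. For Krt19 they were Galnt4 (r = 0.996), Muc1 (0.994), Ghrl (0.994) and Bcas1 (0.994). For Krt7 they were Pkp3 (0.976), Ranbp1 (0.971), Pcna (0.968) and Klf5 (0.957), and for Krt20 Phldb1 (0.967), Ctsc (0.956), Ckap5 (0.955) and Tagln2 (0.955). For Krt8 they were Rpl10a (0.991), Rps10 (0.988), Tmsb4x (0.985) and Rps18 (0.982), of which Rpl10a, Rps10 and Rps18 encode ribosomal proteins. For Krt18 they were Bptf (0.958), Zmpste24 (0.954), Yipf3 (0.925) and Cdh1 (0.918), and for Krt23 Cdk2 (0.960), Ttf2 (0.941), Zfp821 (0.941) and Txnrd3 (0.937).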

How the data were processed

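Total RNA of 9 samples was labelled with biotin and hybridised to 1 Affymetrix mouse array each, per the labels' protocols. The deposited values are log2 signals that, per the submitters' processing notes, the authors made with MAS5. Its version, the step to logs and the floor at 0, where 1.99% to 3.91% of values lay, were not given in the sources used here. Base 2 was inferred, since it gives a trimmed mean signal (2% off either end) of 496 to 497 on every array. The number of arrays limits the precision.

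Of 45037 probe sets, the platform annotation, which can be old, gave 34945 a single gene, 932 several and 9160 none; 34741 matched a RefSeq table of GRCm38.p6 by Entrez identifier, and 0 symbols changed. Each gene was read from its brightest probe set by mean over the 9 arrays, and 11006 genes with signals over the array median on 3 or more arrays entered the tests. One limma fit (version 3.58.1, R 4.3.3; lmFit, contrasts.fit, eBayes with a trend on intensity) covered all arrays with a mean per group, leaving 6 residual degrees of freedom. Tests were two-sided, with p-values adjusted by Benjamini-Hochberg across each comparison's tested genes, and genes with an adjusted p under 0.05 are called. The fit was tested on simulated data. Groups and replicate numbers come from the titles. Whether samples are separate animals is not stated, so p-values reflect spread among these samples only, which may be technical.

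Folds given as "at least" raise dim values to the array median, a stand-in for background. The text names the 6 members, up to 4 called genes with the largest difference per list and comparison, and the 4 genes most like each member; Dsp, Vim and some keratins were named after their values were seen. The members and lists were chosen with earlier results of these data known. Alternatives covered the pseudocount, the scaling between arrays, the filter, the choice of probe set, the variance model, the arrays in the fit and the replicate block.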

Additional observations from a re-analysis of the deposited data

How the results depend on the processing

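Of the differences of keratin genes, those of Krt19 against the parietal group and of Krt7 between isthmus and parietal kept their direction and call in all 21 alternatives. Centring the arrays on their medians turned Krt18 to 0.23 (isthmus minus chief), -0.15 (isthmus minus parietal) and 0.38 (parietal minus chief), Krt19 to 0.25 and Krt8 to 0.01 (both isthmus minus chief), Krt23 to 0.39, Dsc2 to 0.05 and Ywhaz to 0.073 (all 3 parietal minus chief). It also turned Krt8 probe sets 2 and 3 to 0.043 and 0.33 for isthmus minus chief. Quantile normalization turned isthmus minus chief to 0.25 for Krt18, 0.33 for Krt19, 0.043 for Krt8 probe set 2 and 0.21 for Krt8 probe set 3. The cause was not tested. For isthmus minus chief, Krt20 ranged from -0.49 to 0.97 and Krt8 probe set 3 from -0.19 to 0.048 when 1 array was left out, the latter being 0.048 without both arrays with high Xist. Of the keratin genes called, parietal minus chief gave 2 without both arrays with high Xist and 2 to 5 with 1 array left out, and isthmus minus parietal 2 to 4 with 1 array left out. Beside these, 1601, 1909 to 2614 and 2275 to 3223 of all tested genes were called. Ratios to Krt8 without overlap between isthmus and chief numbered 1 with the mean of all probe sets, 4 without both arrays with high Xist and 2 to 4 with 1 array left out, and between parietal and chief 3 to 5. No share over all genes was computed for these ratio counts. Over all genes the count called for isthmus minus chief was 182, and 276 with centring, 316 with a pseudocount of 64, 95 without the filter, 43 without the intensity trend, 118 with the mean of all probe sets, 91 with the 6 arrays compared, 50 without both arrays with high Xist and 19 to 163 with 1 array left out; for parietal minus chief it was 1601 without both arrays with high Xist. Deviations of same-numbered arrays from their group means were little correlated over all tested genes (-0.037 to 0.073). This cannot settle whether the replicate numbers pair samples. With the replicate number as a block in limma, 5 keratin genes were called for parietal minus chief, Krt18 being added (adjusted p = 0.0347). For isthmus minus parietal 4 were called, with Krt8 (0.0385) in place of Krt23, and 0 for isthmus minus chief. Beside these 3 counts, 2579, 2946 and 139 of all tested genes were called with the block. Dim probe sets limit Krt20, which 2 of 3 parietal arrays held below the array median.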
